A study of Mus musculus with 2 samples.

Results

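The striated muscle miRNAs are the short RNAs of heart and skeletal muscle, and 9 of their genes were followed here in newborn mouse bladder: Mir208a, Mir208b, Mir499, Mir206, Mir133b, Mir1a-1, Mir1b, Mir133a-1 and Mir133a-2. They were chosen by name, from the miRNAs known as markers of striated muscle, with earlier results of these data known. They make up 9 of the 1973 annotated miRNA genes in the tables. The study sequenced RNA under 30 nucleotides from whole bladders of B6NCrl mice at postnatal day 0. It has 1 group of 2 libraries, each made from 1 bladder. The bladders came from littermates, which are named pup 2 and pup 1 as in the labels. The labels name no treatment and no altered allele, and sex was not collected. With 1 group, the data allow a description of the levels and of the spread between littermates, and no comparison of conditions.

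MicroRNAs are loaded into a protein complex that represses messenger RNAs, and they find their targets mainly through a short stretch near the 5′ end called the seed. The muscle of the bladder wall is smooth muscle, which is marked by Mir143 and Mir145a. The miRNAs followed here belong to the other kind of muscle: miR-1 and miR-133 are abundant in heart and skeletal muscle, miR-206 is largely restricted to skeletal muscle, and miR-208a, miR-208b and miR-499 are made from introns of myosin heavy chain genes. In a bulk sample, fewer cells of a type and less RNA per cell cannot be told apart.

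The mature RNAs below are those of the most abundant members and of Mir133b, shown for their seeds. They are the RefSeq sequences of GRCm38.p6, written 5′ to 3′, with the seed (bases 2 to 8) in capitals. The table held entries for 6 of the 9 members; miR-1a-3p and miR-133a-3p are not shown.
miR-208b-3p: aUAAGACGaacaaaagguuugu
miR-208a-3p: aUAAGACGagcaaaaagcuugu
miR-499-5p: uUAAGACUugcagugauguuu
miR-206-3p: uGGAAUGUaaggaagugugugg
miR-133b-3p: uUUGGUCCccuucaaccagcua
The RNAs of Mir208b (chr14:54975710-54975731, minus strand) and Mir208a (chr14:54949072-54949093, minus strand) have the same seed. They share 19 of 22 bases and differ by G10A, A16G and C18U, counted from 1 at the 5′ end with the miR-208a-3p base first. The seed of miR-499-5p (chr2:155622893-155622913, plus strand) equals theirs at 6 of 7 bases, with G8U as the change from miR-208b-3p to miR-499-5p. No other mature RNA among the 1679 in the table has bases 2 to 7 of these seeds. As background, miR-206-3p (chr1:20679055-20679076, plus strand) is known to share its seed with miR-1, and miR-133b-3p (chr1:20682834-20682855, plus strand) with miR-133a. In the table the seed of miR-206-3p also occurred in the RNAs of Mir6349 and Mir6382, both of which had 0 counts in either pup.

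Levels are counts on the strand of the annotated gene per 1000000 such counts in the library (CPM). Pup 2 had 3636650 of these counts and pup 1 had 7460621, so a gene with no count can still be as high as 0.825 CPM in pup 2 or 0.402 CPM in pup 1 (3 counts). All intervals and limits given here cover counting error only, and overlapping intervals do not show that the values are equal. The 9 members together had 343 counts or 94.3 CPM in pup 2 (exact Poisson 95% interval 84.6 to 104.8) and 815 counts or 109.2 CPM in pup 1 (101.9 to 117.0). The mean of 101.8 ± 10.6 CPM (SD, n = 2) was 0.0102% of the counts. A member was called detected at 1 CPM and 3 counts in both pups. This held for 4 of 9 members, against 335 of all 1973 genes (17.0%); the members are known muscle genes, so the share is given without a test.

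Among the miRNAs of myosin introns, Mir208b was the most abundant member. Mir208b (ENSMUSG00000077928.1) lies in an intron of Myh7, the gene of the slow myosin heavy chain of heart and slow skeletal fibres, on the same strand (chr14:54975700-54975776, minus strand). It had 191 counts or 52.5 CPM in pup 2 (interval 45.3 to 60.5) and 547 counts or 73.3 CPM in pup 1 (67.3 to 79.7). The mean was 62.9 ± 14.7 CPM (SD, n = 2), which ranked 174 among the 1973 genes. The intervals of the pups did not overlap, with pup 1 above pup 2.

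Mir208a (ENSMUSG00000065432.1) lies in an intron of Myh6, the gene of the fast myosin heavy chain of heart muscle (chr14:54949060-54949142, minus strand), 26557 bases from Mir208b. It had 83 counts or 22.8 CPM in pup 2 and 137 counts or 18.4 CPM in pup 1, with a mean of 20.6 ± 3.15 CPM (SD, n = 2). Its intervals, 18.2 to 28.3 CPM in pup 2 and 15.4 to 21.7 CPM in pup 1, overlapped.

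Mir499 (ENSMUSG00000076312.1) lies in an intron of Myh7b, a further myosin heavy chain gene of heart and slow skeletal muscle (chr2:155622880-155622958, plus strand). It had 37 counts or 10.2 CPM in pup 2 (interval 7.16 to 14.0) and 27 counts or 3.62 CPM in pup 1 (2.38 to 5.27). The intervals did not overlap, and pup 2 was the higher one although its library was the shallower. The mean was 6.90 ± 4.64 CPM (SD, n = 2).

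Of the 6 members outside the myosin introns, Mir206 alone was detected on the sense strand; in counts of both strands Mir1b was detected too, which made 5 members. Mir206 (ENSMUSG00000065559.1) overlaps an exon of the long non-coding gene Gm28653 (chr1:20679010-20679082, plus strand). It had 25 counts or 6.87 CPM in pup 2 (interval 4.45 to 10.1) and 83 counts or 11.1 CPM in pup 1 (8.86 to 13.8), with overlapping intervals and a mean of 9.00 ± 3.01 CPM (SD, n = 2). Mir133b (ENSMUSG00000065480.1), which overlaps an exon of the same non-coding gene 3686 bases away (chr1:20682769-20682887, plus strand), had 2 counts in pup 2 and 4 in pup 1. Of the counts at this gene pair, Mir206 held 92.6% in pup 2 (exact Clopper-Pearson 95% interval 75.7% to 99.1%) and 95.4% in pup 1 (88.6% to 98.7%). Mir133b shares a run of 21 bases with Mir133a-1, and reads that mapped to several places were set aside. How much this share depends on those reads was not tested.

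**Figure D1:**
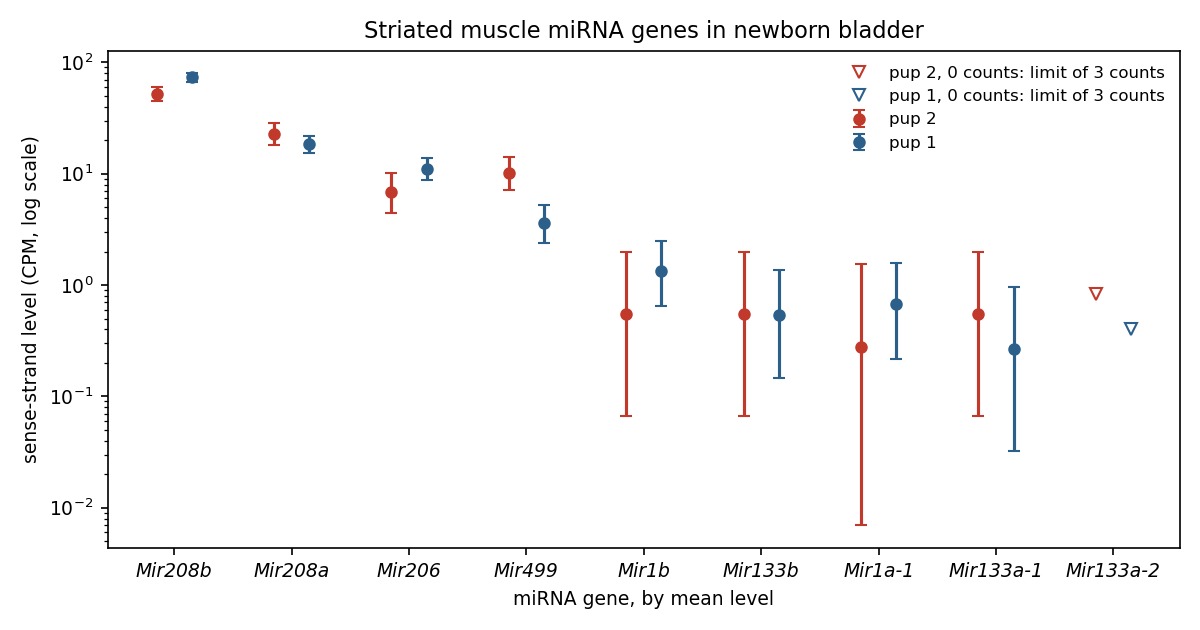
Level of each of the 9 genes in pup 2 (red, left) and pup 1 (blue, right), in CPM on a log axis; points are 1 library each and bars are exact Poisson 95% intervals of the counts. Mir208b, Mir208a, Mir206 and Mir499 lie between 3.62 and 73.3 CPM, and Mir133a-2, with 0 counts, is shown at the limit that 3 counts give (triangles).

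The remaining genes of the miR-1 and miR-133 groups were near 0. In mouse, miR-1 is known to repress the messenger RNA of the histone deacetylase Hdac4, and miR-133 that of the transcription factor Srf. Mir1a-1 (ENSMUSG00000070144.1; chr2:180389048-180389124, plus strand) had 1 count or 0.275 CPM in pup 2 and 5 counts or 0.670 CPM in pup 1. Mir133a-2 (ENSMUSG00000065460.1; chr2:180398379-180398482, plus strand), 9254 bases further on, had 0 counts in both pups and was the single member with none. Mir133a-1 (ENSMUSG00000065399.1; chromosome 18 at 10782909 to 10782976, minus strand, in an intron of Mir133a-1hg) had 2 counts in each pup. Mir1b (ENSMUSG00000080662.1; chromosome 18 at 10785446 to 10785567, plus strand, in an intron of Mib1) had 2 sense counts or 0.550 CPM in pup 2 and 10 sense counts or 1.34 CPM in pup 1. These 4 genes and Mir133b had 7 counts in pup 2, or 2.04% of the members' counts, and 21 in pup 1, or 2.58%.

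The genes near 0 are also those that share runs of at least 20 bases, about the length of a mature miRNA, with another miRNA gene. Mir1a-1 shares a run of 28 bases with Mir1a-2, Mir133a-1 and Mir133a-2 share 31 bases with each other, and Mir133b shares 21 with Mir133a-1. Mir1b shares 28 bases with Mir1a-1 in reverse complement. Mir208a, Mir208b, Mir206 and Mir499 share no more than 14 bases with any other annotated miRNA gene. Reads that mapped to several places, 24.8% of reads in pup 2 and 22.7% in pup 1, were listed apart from the genes. All 5 members with a shared run of at least 20 bases were undetected, and all 4 without one were detected. Over all genes with an annotated sequence, 77 of 929 genes with such a run were detected (8.29%), and 258 of 965 without one (26.7%). How much of the low counts comes from reads set aside was not tested, so they do not show that miR-1 or miR-133 is low in this tissue.

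The opposite strand at Mir1b carries Mir1a-2, a source of miR-1 with no row of its own in the tables. Here 19 of 21 counts lay on that strand in pup 2 (90.5%, exact Clopper-Pearson 95% interval 69.6% to 98.8%) and 24 of 34 in pup 1 (70.6%, 52.5% to 84.9%). The mean share was 80.5% ± 14.1 (SD, n = 2), with overlapping intervals. Over all genes the opposite strand held 3.18% of counts in pup 2 and 3.17% in pup 1. The other 8 members had no opposite-strand count in either pup. On the scale of the sense-strand totals, the locus had 5.22 CPM in pup 2 and 3.22 CPM in pup 1, a mean of 4.22 ± 1.42 CPM (SD, n = 2). That mean is below the mean of Mir499 and above that of all 5 members near 0. The Poisson intervals of the locus were 3.15 to 8.16 CPM in pup 2 and 2.06 to 4.79 CPM in pup 1. They overlapped those of Mir499 in both pups and that of Mir1b in pup 1, so its place in the order is not resolved. Mir1a-2 shares its run of 28 bases with Mir1a-1, so this level has the same limit.

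By mean CPM the order was Mir208b, Mir208a, Mir206, Mir499, Mir1b, Mir133b, Mir1a-1, Mir133a-1 and Mir133a-2. Each read of this assay can cover a whole mature RNA, so CPM was not divided by length in that order. Neighbours were taken as apart where neither the values of the pups nor the Poisson intervals within a pup overlapped. Mir208b and Mir208a were apart, and so were Mir208a and Mir206. All later neighbours overlapped, so the order of Mir206 and Mir499 and of the genes near 0 is not resolved. Per 100 bases of annotated gene, the mean level was 81.7 CPM for Mir208b, 24.8 for Mir208a, 12.3 for Mir206 and 8.73 for Mir499. On that scale Mir208b and Mir208a stayed apart, the intervals of Mir208a and Mir206 overlapped, and Mir499 was apart from Mir1b.

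**Figure D2:**
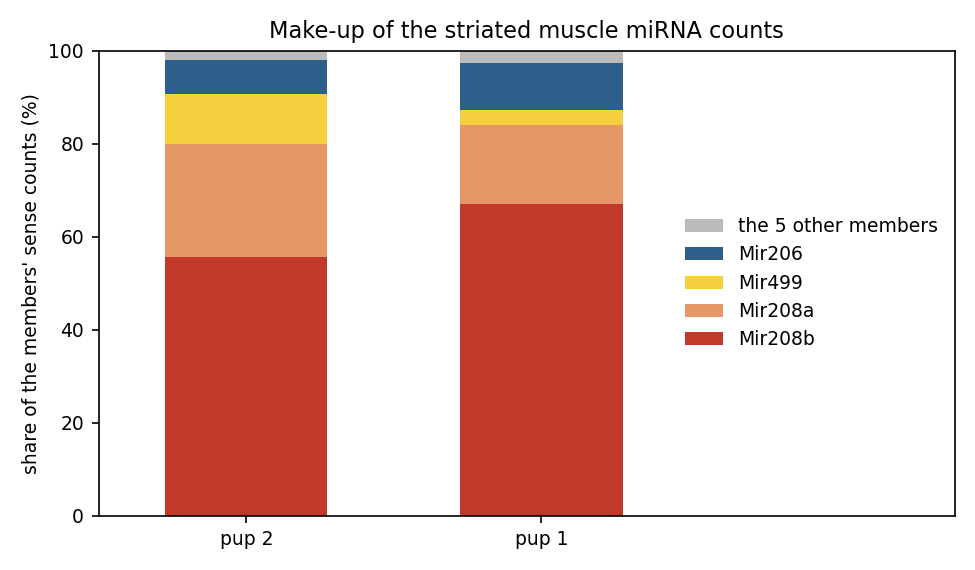
Share of the members' summed sense counts (%) held by each gene in pup 2 (343 counts) and pup 1 (815 counts), with the 5 genes near 0 joined. Mir208b holds 55.7% in pup 2 and 67.1% in pup 1, and Mir499 holds 10.8% in pup 2 and 3.31% in pup 1.

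Ratios between members within a library do not depend on how the libraries are scaled. Mir208b and Mir208a together held 79.9% of the members' counts in pup 2 (exact Clopper-Pearson 95% interval 75.2% to 84.0%) and 83.9% in pup 1 (81.2% to 86.4%). Between them, Mir208b held 69.7% in pup 2 (63.9% to 75.1%) and 79.97% in pup 1 (76.8% to 82.9%), so that the count of Mir208b was 2.30 times that of Mir208a in pup 2 and 3.99 times in pup 1. Those intervals did not overlap. Mir499 held 16.2% of the counts of Mir499 and Mir208b in pup 2 (11.7% to 21.7%) and 4.70% in pup 1 (3.12% to 6.77%), again with no overlap. Against Mir208a the intervals overlapped: Mir499 held 30.8% of the counts of Mir499 and Mir208a in pup 2 (22.7% to 39.9%) and 16.5% in pup 1 (11.1% to 23.0%). Mir206 held 23.1% of the counts of Mir206 and Mir208a in pup 2 (15.6% to 32.2%) and 37.7% in pup 1 (31.3% to 44.5%), with overlapping intervals. Of the counts of Mir206 and Mir499, Mir206 held 40.3% in pup 2 (28.1% to 53.6%) and 75.5% in pup 1 (66.3% to 83.2%). Those intervals did not overlap. Mir206 held 11.6% of the counts of Mir206 and Mir208b in pup 2 (7.63% to 16.6%) and 13.2% in pup 1 (10.6% to 16.1%), with overlapping intervals. These ratios were chosen with the levels known and are given with no test. Overlapping intervals do not show that the shares of the pups are equal.

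Each gene with at least 10 counts over both pups was then compared between the libraries by a two-sided exact binomial test, with the library sizes scaled by TMM and Benjamini-Hochberg adjustment over all 362 such genes. This sets the difference between 2 libraries against counting noise alone and compares no conditions, and with 1 library on each side a difference has no replicate check. The 4 members with 0 to 6 counts were not tested. Of the 5 members tested, 2 passed at an adjusted p of 0.05, 1 in each direction, against 117 of 362 genes (32.3%). Of all tested genes, 69 were higher in pup 2 (19.1%) and 48 in pup 1 (13.3%). That split was 49 and 73 with DESeq2 size factors and 59 and 64 with total count scaling, and under both Mir499 and Mir208b were the members that passed. Mir499 was higher in pup 2, with a log2 ratio of pup 2 over pup 1 of 1.51 (counting SE 0.36, adjusted p = 0.000214 by the exact binomial test), or 2.84-fold. Mir208b was lower in pup 2, with a log2 ratio of -0.45 (counting SE 0.12, adjusted p = 0.00065 by the exact binomial test), or 1.37-fold higher in pup 1.

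Mir208a had a log2 ratio of 0.34 (counting SE 0.20), Mir206 one of -0.65 (SE 0.33) and Mir1b one of -1.01 (SE 1.02), and none of these passed. The adjusted p values of the exact binomial test were 0.221 for Mir208a, 0.108 for Mir206 and 0.549 for Mir1b. The median log2 ratio was -0.45 over the 5 tested members and 0.03 over all 362 tested genes. The median absolute log2 ratio was 0.65 over these members and 0.16 over all tested genes. The sets differ in depth, with a counting SE of 0.12 to 1.02 for the members and 0.001 for Mir143, the gene with most counts. These medians were not matched for depth, so they do not show that the members vary more than genes of like counts. Mir1b rests on 12 counts, and in counts of both strands, which include Mir1a-2, its log2 ratio was 0.37.

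A further test was edgeR's exact test with the spread of all genes between the pups (a biological coefficient of variation of 13.2%). That spread was estimated from the same 2 libraries, so it includes the differences under test. It also cannot separate the pups from library preparation, so the test is no independent check. With it, 0 of 5 members and 5 of 362 genes (1.38%) passed. The adjusted p of that test was 0.0663 for Mir499 and 1 for Mir208b, and 1 member, Mir499, had an unadjusted p under 0.05. Only Mir499 among the members passed the binomial test with a ratio of at least 2-fold, against 10 of 362 genes (2.76%).

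**Figure D3:**
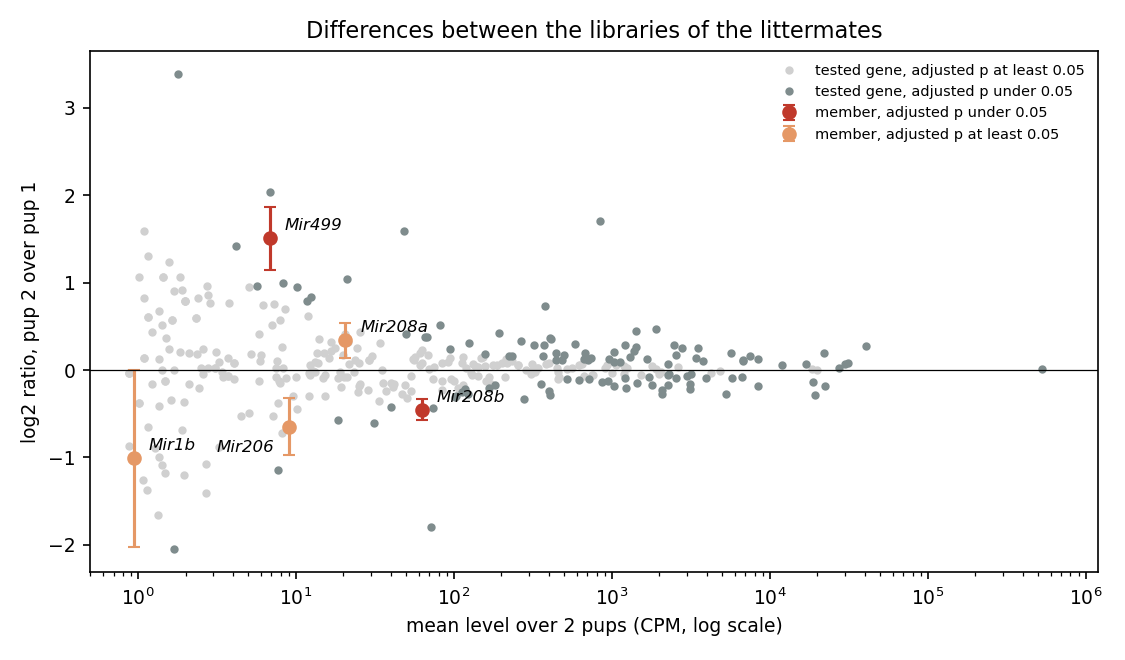
Log2 ratio of pup 2 over pup 1 against the mean level in CPM (log axis) for the 362 tested genes, with the 5 tested members named and drawn with bars of 1 counting SE. Mir499 lies at 1.51 and Mir208b at -0.45, and both have an adjusted p under 0.05 by the exact binomial test.

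Some blood cell markers and the liver marker also differed between the libraries, and their part in the members' ratios was not tested. Mir223 of myeloid blood cells had 1274 CPM in pup 2 and 396.2 CPM in pup 1, a log2 ratio of 1.71. Summed over the 6 measured blood cell genes, the level was 2357 CPM for pup 2 and 1201 CPM for pup 1, and 3 of its 6 tested genes passed as higher in pup 2, beside 19.1% of all tested genes. Of these 3, Mir223 alone passed edgeR's exact test with the common dispersion; the adjusted p of that test was 0.357 for Mir144 and 1 for Mir451a. Most of the difference between the blood cell sums lay in Mir223, and the median log2 ratio of the 6 genes was 0.26. Mir122 of hepatocytes had 31.6 CPM in pup 2 and 111.8 CPM in pup 1. Of the 6 tested epithelium genes, 1 passed as higher in pup 2 and 1 as higher in pup 1. The median log2 ratio of these epithelium genes was -0.02. Mir126a of endothelial cells did not pass (adjusted p = 0.705 by the exact binomial test), with a log2 ratio of 0.004. Mir338 and Mir137, the detected genes of the neuron list, did not pass. Its sum was 101.7 CPM for pup 2 and 99.6 CPM for pup 1, and its Mir124a and Mir9 genes with a row were at 0. Reads that mapped to several places were set aside here too, so a count of 0 does not show that these miRNAs are absent.

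The smooth muscle genes set the scale for these levels. Mir143 alone was 5547 times the summed level of all 9 members in pup 2 and 4819 times in pup 1, in CPM. Mir145a was 128.5 times the members' sum in pup 2 and 108.4 times in pup 1. Its relative Mir145b had 2 counts in pup 2 and 4 in pup 1, the same as Mir133b. Per library, the members' sum was 0.716% of the epithelium list in pup 2 and 0.813% in pup 1. It was 0.480% of the level of Mir126a, a miRNA of endothelial cells, in pup 2 and 0.549% in pup 1. Reads that mapped to several places and the Mir1a-2 strand are outside the members' sum. These comparisons concern the counts assigned to the genes, and do not show how low miR-1 or miR-133 is in this tissue.

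**Figure D4:**
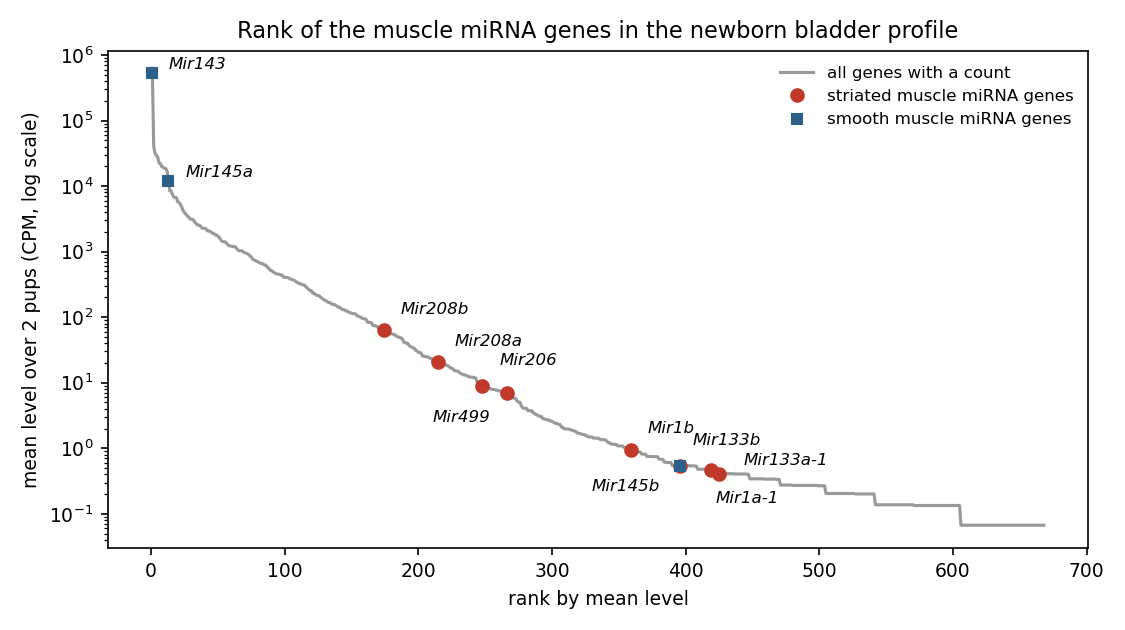
Mean level over the 2 pups in CPM (log axis) against rank for all genes with a count (grey line), with the striated muscle genes (red circles) and the smooth muscle genes (blue squares) named; Mir133a-2, at 0, is not drawn. Mir208b stands at rank 174 and Mir143 at rank 1.

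A list of 20 other miRNAs with a role in skeletal or heart muscle, most of them also known from other tissues, had rows for 17 genes. Its level was 53697 CPM for pup 2 and 58217 CPM for pup 1. With the same limit on the members' sum, this level was 569.3 times that sum in pup 2 and 532.9 times in pup 1. It was led by Mir322, which promotes exit from the cell cycle in mouse muscle precursors, at 27500.7 ± 59.3 CPM, by Mir22, abundant in heart, at 19380.4 ± 2920.7 CPM, and by Mir214 at 3954 ± 222.8 CPM (SD, n = 2). Of its 16 tested genes, 6 passed the exact binomial test as higher in pup 2 and 4 as higher in pup 1, beside 19.1% and 13.3% of all tested genes, and the median log2 ratio was 0.07. None of Mir322, Mir22 and Mir214 passed edgeR's exact test with the common dispersion (adjusted p = 1 for each). Mir22 was among those higher in pup 1, with a log2 ratio of -0.28. Mir322 was among those higher in pup 2, with a log2 ratio of 0.02 after TMM scaling. Its CPM, without that scaling, was lower in pup 2 (27459) than in pup 1 (27543). The split of this list was not repeated with other scalings, nor matched for depth to all tested genes.

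The genes whose levels were most like those of the leading members in both libraries were found by the larger of the 2 differences in log2(CPM + 1). For Mir208b they were Mir187, Mir362 and Mir3102, with largest differences of 0.24, 0.27 and 0.28. Mir187 had 62.4 CPM in pup 2 and 85.9 CPM in pup 1. For Mir208a they were Mir493, Mir146 and Mir412, with largest differences of 0.05, 0.07 and 0.12. With 2 libraries this likeness is one of level only.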

How the data were processed

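Small RNA was sequenced from the bladders of 2 newborn littermates. The authors deposited 1 table per library of whole-number counts per miRNA gene, not normalized; per the labels and the README text, reads were aligned to mm10 with genes of GENCODE M4. Which aligner and counter made them is not given in the sources used here. Count columns are unnamed. For every gene the leading column was the total of the other two, which were read as sense and then opposite strand. The 4 lines of unassigned reads were left out of library totals and tests. Unmapped reads made up 7.32% of the pup 2 library and 8.19% of the pup 1 library.

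Symbols and positions came from GENCODE M21 on GRCm38, which mm10 names, by Ensembl gene number (1894 of 1973 matched). TMM factors and the common dispersion came from edgeR 4.0.16 over the 362 genes with at least 10 counts. Log2 ratios used a prior count of 0.5. Other tools were DESeq2 1.42.0, R 4.3.3, Python 3.11.15 and scipy 1.17.1. The binomial test was checked on simulated counts with counting noise alone, so that check does not cover spread between pups. Alternatives were other library scalings, count minimums, strands, denominators, error models and prior counts, a 2-fold minimum, division by gene length and each pup left out. Quasi-likelihood tests were not possible with 1 library on each side. Shared runs were sought between GENCODE M21 hairpin sequences on both strands.

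The members and lists were chosen with earlier results of these data known. Named genes were taken from all members, the 3 genes nearest in level to each of the 2 leading members, and up to 3 leading genes of each list.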

Additional observations from a re-analysis of the deposited data

How the results depend on the processing

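The summed level of the members was 66.6 CPM with all reads as the denominator and 214.2 CPM with Mir143 left out of the totals, and 94.3 to 109.2 CPM without replicate 1 or 2. The number of members detected was 2 at 10 CPM in both pups, and 4 to 5 without replicate 1 or 2. The opposite-strand share at Mir1b was 70.6% to 90.5% without replicate 1 or 2. In edgeR's exact test with the common dispersion 5 genes and 0 members were called. At 2-fold or more, 10 genes and 1 member were called. With at least 100 counts 1 member was called, since Mir499 had too few counts to be tested. In counts of both strands the log2 ratio of Mir1b turned to 0.37, since these include Mir1a-2. Over the alternatives, the log2 ratio ran from 1.45 to 1.51 for Mir499 and from -0.52 to -0.45 for Mir208b. No paired analysis was possible because the samples form 1 group. Depth limits the genes near 0, where 1 read is a large share of the level.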
